A study of Mus musculus with 6 samples.

Results

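The receptors of the ERBB family and the growth factors that bind them were followed in AML12, an established mouse hepatocyte line, after knockdown of Setdb1. The members are 3 receptor genes (Egfr, Erbb2 and Erbb3) and 7 ligand genes (Areg, Ereg, Hbegf, Tgfa, Btc, Epgn and Nrg1), chosen by name, and all 10 were among the 25416 genes of the deposited table. The cells received a scrambled RNA (siNC, 3 libraries) or an siRNA against Setdb1 (siSetdb1, 3 libraries) and were harvested after 72 h. The labels give the same RNA amount for every library. As siSetdb1 is the only targeting group, effects of its siRNA on other transcripts cannot be told apart from those of losing Setdb1. Per the labels, every library comes from cells of a mouse transgenic for human TGF alpha. Both groups therefore carry an added gene for an EGFR ligand. The promoter of that transgene is not given in the sources used here, and no label states that libraries of 1 group came from different cultures. The p-values therefore reflect the spread among these libraries alone, and that spread may be technical.

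ERBB receptors are tyrosine kinases of the cell surface that pair when a ligand binds, and signal through RAS and ERK and through PI3 kinase. Amphiregulin (Areg), epiregulin (Ereg), heparin-binding EGF-like growth factor (Hbegf), transforming growth factor alpha (Tgfa), betacellulin (Btc) and epigen (Epgn) bind EGFR, whereas neuregulin (Nrg1) binds ERBB3 and ERBB4. ERBB2 has no known soluble ligand and acts as the partner of the others, and ERBB3 has little kinase activity of its own. The ligands are made as membrane precursors and cut loose by metalloproteases. In the liver, EGFR signalling is known for its part in the proliferation of hepatocytes during regeneration.

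Of the members, Areg, Ereg and Hbegf rose, Nrg1 fell, and none of the 3 receptors passed the test. Values are FPKM, reads per kilobase of exon scaled to the depth of the library. A log2 fold change is the siSetdb1 mean of log2(FPKM + 1) minus the siNC mean, a scale that understates changes of low genes. A gene passed when limma's p-value, adjusted over all 12846 genes tested, was below 0.05. Of the 9 members tested, 3 rose and 1 fell, and 5 did not pass. Over all genes tested, 15.1% passed, 6.87% as higher and 8.27% as lower (883 and 1062 genes). With median-ratio scaling the larger share was higher, 997 against 847 genes. The median log2 fold change was 0.18 over the 9 tested members and -0.018 over all genes tested. Epgn was too low to be tested.

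Summed over genes, the libraries held 16769452 to 17810110 reads, recovered from the FPKM values. Setdb1 itself had 8.41, 8.54 and 9.43 FPKM in siNC and 4.29, 4.21 and 3.29 FPKM in siSetdb1, so the groups did not overlap and the targeted mRNA was lower by 55.3% (limma adjusted p = 0.00183). One library stood apart: siNC replicate 1 differed from the other siNC libraries with a chi-square per degree of freedom of 24.5 and 26.2, against 5.06 to 8.69 for the other pairs within a group. Without siNC replicate 1 the same 4 members passed. Of the hepatocyte markers, Hnf4a, a transcription factor of the lineage, had 27.1 to 38.2 FPKM over the 6 libraries. Albumin (Alb) had 4.05 to 14.3 FPKM in siNC and 1.45 to 4.50 FPKM in siSetdb1, and the urea cycle gene Cps1 did not exceed 0.0314 FPKM. Of the 9 hepatocyte markers tested, Ttr and Trf, which encode plasma carriers, fell, Krt18 rose from 1633 to 2012 FPKM (limma adjusted p = 0.0364) and 6 did not pass. The keratin genes Krt8, Krt18 and the biliary keratin gene Krt19 had 1164 FPKM or more in each library. The summed level of 13 hepatocyte markers was 2837 to 3241 FPKM in siNC and 3367 to 3485 FPKM in siSetdb1. Nearly all of it was Krt8 and Krt18, so this sum does not show the direction of the other hepatocyte markers. That of 6 biliary markers was 1650 to 1837 FPKM in siNC and 1636 to 1817 FPKM in siSetdb1, most of it Krt19. Of the 5 biliary markers tested, 3 passed. Sox9, a transcription factor gene of biliary cells, rose from 4.95 to 9.26 FPKM (limma adjusted p = 0.0068), Krt7 rose from 154.5 to 218.4 FPKM (0.00827), and Spp1, which encodes osteopontin, fell from 220.3 to 114.9 FPKM (0.00689). Endothelial markers summed to 0.193 FPKM at most and stellate and fibroblast markers to 1.36 FPKM at most. Of the blood cell markers, Ptprc did not exceed 0.0096 FPKM and Cd68 alone passed the filter on low values, with a fall from 5.27 to 2.48 FPKM. The part of these markers in the members' values was not tested, and in bulk RNA fewer cells of a type and less RNA per cell cannot be told apart.

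**Figure D1:**
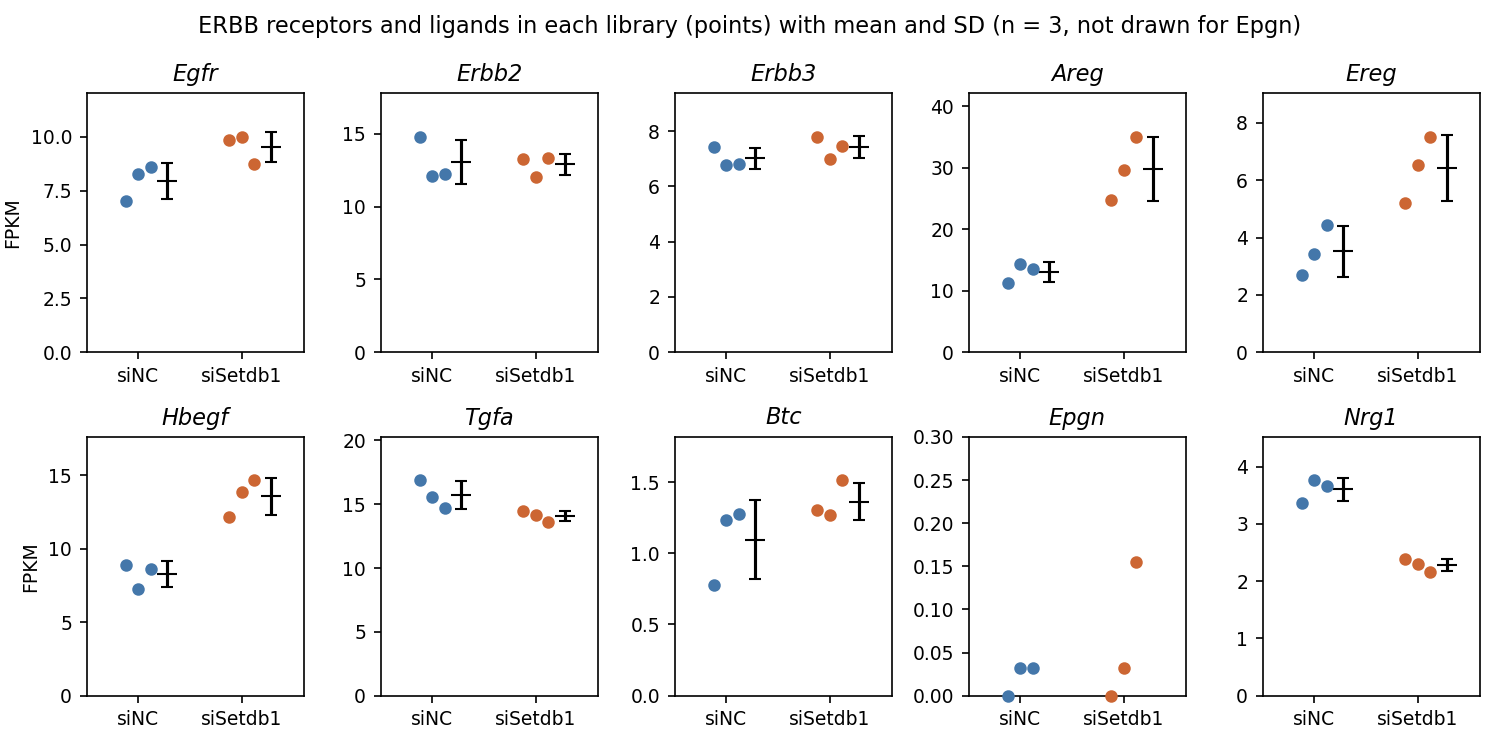
FPKM of each of the 10 members in the 3 siNC and 3 siSetdb1 libraries. Points are libraries, in the order of their replicate numbers, and the mark beside them is the mean with the SD (n = 3, not drawn for Epgn). The siSetdb1 libraries lie above all siNC libraries for Areg, Ereg, Hbegf and Egfr and below them for Nrg1 and Tgfa. Of these, Egfr and Tgfa did not pass the test. Groups did not overlap for 39.2% of all genes tested (17.6% as higher, 21.6% as lower).

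Areg is the ligand gene with the largest difference, and with Ereg, Epgn and Btc it lies in 1 stretch of 375.5 kb on chromosome 5 (91027464 to 91402994, mm10). The bases before the start of 3 of these 4 genes are shown: Areg, which rose, Btc, which did not pass, and Epgn, which was close to 0. Ereg, which also rose, had no sequence among those used here. Whether a CRE goes with a rise was therefore not tested. The bases shown are from RefSeq (GRCm38.p6, the assembly of mm10), written 5′ to 3′ on the strand of the gene. They end at the base before the start that the deposited table gives. Areg and Epgn are on the plus strand (chr5:91139349-91139598 and chr5:91027267-91027463) and Btc is on the minus strand (chr5:91402995-91403244). Capitals mark a CRE (TGACGTCA, the site of CREB-type factors) and a TATA box (TATAAA).
Areg: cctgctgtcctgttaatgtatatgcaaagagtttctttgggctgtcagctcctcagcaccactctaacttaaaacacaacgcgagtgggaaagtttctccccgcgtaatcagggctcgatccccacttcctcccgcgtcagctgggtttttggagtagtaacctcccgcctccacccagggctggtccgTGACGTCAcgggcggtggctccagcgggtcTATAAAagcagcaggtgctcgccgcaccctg
Epgn: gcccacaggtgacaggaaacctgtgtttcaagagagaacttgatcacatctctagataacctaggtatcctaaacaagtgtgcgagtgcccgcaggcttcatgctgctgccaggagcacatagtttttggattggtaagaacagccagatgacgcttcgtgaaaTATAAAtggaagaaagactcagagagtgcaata
Btc: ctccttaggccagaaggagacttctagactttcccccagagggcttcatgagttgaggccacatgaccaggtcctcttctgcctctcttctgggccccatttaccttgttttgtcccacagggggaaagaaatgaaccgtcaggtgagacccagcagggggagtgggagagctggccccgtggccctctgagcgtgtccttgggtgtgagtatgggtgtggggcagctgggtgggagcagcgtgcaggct
The CRE of Areg begins 61 bases before the start and its TATA box 31 bases before it. In Epgn the TATA box begins 33 bases before the start, and the Btc window holds neither motif. Such a CRE is present in 1.55% and such a TATA box, on either strand, in 12.4% of all 32851 RefSeq windows of 250 bases before a gene start. A search on both strands for AP-1 (TGACTCA), EGR (GCGTGGGCG) and CArG box motifs found no match in the windows of the 6 members searched (Areg, Epgn, Btc, Tgfa, Egfr and Erbb2). In all windows these 3 motifs were present in 4.46%, 0.536% and 1.47%. The windows of Epgn (197 bases) and Erbb2 (236 bases) were shorter than the 250 bases of these shares. Ereg, Hbegf, Erbb3 and Nrg1 were not searched, so Areg was the only member that passed whose window was looked at. No 2 of the motifs overlap in Areg. A match is a run of letters and does not show that a factor binds.

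Areg (ENSMUSG00000029378, chromosome 5, 91139599 to 91148432) had 11.3, 14.4 and 13.5 FPKM in siNC and 24.7, 29.6 and 35.0 FPKM in siSetdb1. The lowest siSetdb1 library was above the highest siNC library. The mean rose 2.28-fold, from 13.1 ± 1.6 to 29.8 ± 5.2 FPKM (SD, n = 3), with a log2 fold change of 1.12 (SE 0.14, limma adjusted p = 0.00362). These values rested on 230 to 304 reads in siNC libraries and 518 to 759 in siSetdb1 libraries. In each alternative run Areg passed, with adjusted p-values of 0.000779 to 0.0238.

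Ereg (ENSMUSG00000029377, chromosome 5, 91074622 to 91093646) lies on the same strand as Areg, with its start at -65.0 kb from the start of Areg, and had 2.68, 3.44 and 4.44 FPKM in siNC and 5.22, 6.53 and 7.52 FPKM in siSetdb1. The groups did not overlap, although the highest siNC library and the lowest siSetdb1 library were close. The mean rose 1.82-fold with a log2 fold change of 0.72 (SE 0.17, limma adjusted p = 0.0300). The call was lost without siNC replicate 2 (adjusted p = 0.0789), siSetdb1 replicate 2 (0.1) or siSetdb1 replicate 3 (0.0828), and also when low genes were kept in the test (0.0869). The exons of Ereg share 141 bases, 3.4% of their length, with the antisense gene Gm19610. Gm19610 had 1.46, 2.82 and 1.71 FPKM in siNC and 3.26, 5.31 and 3.30 FPKM in siSetdb1 and did not pass (limma adjusted p = 0.0574), although it did in 4 of 14 alternatives. The labels name no step that marks strand, so reads from the shared bases cannot be assigned to either gene.

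Hbegf (ENSMUSG00000024486, chromosome 18), whose membrane precursor is also the receptor of diphtheria toxin, had 8.90, 7.28 and 8.65 FPKM in siNC. In siSetdb1 it had 12.2, 13.8 and 14.7 FPKM, all above the siNC libraries. The mean rose 1.64-fold, from 8.27 ± 0.87 to 13.6 ± 1.3 FPKM (SD, n = 3), with a log2 fold change of 0.65 (SE 0.10, limma adjusted p = 0.00699). It rested on 612 to 1264 reads per library. Like Areg, Hbegf passed in each alternative run, with adjusted p-values of 0.00179 to 0.0382.

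Tgfa, the mouse gene of the factor that the transgene encodes in its human form, was the most abundant member in siNC. Tgfa (ENSMUSG00000029999, chromosome 6, 86195223 to 86275719) had 16.9, 15.5 and 14.7 FPKM in siNC and 14.5, 14.2 and 13.6 FPKM in siSetdb1. The siSetdb1 libraries were lower without overlap, but the gene did not pass (log2 fold change -0.15, 95% interval -0.32 to 0.022, limma adjusted p = 0.208). Without siNC replicate 1 the log2 fold change was -0.098. Over all genes tested, 39.2% had groups that did not overlap, 17.6% as higher and 21.6% as lower, so that absence of overlap alone was common. Reads of the human transgene that match the mouse gene may be included in these values, and their part was not tested.

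Betacellulin and epigen were the least abundant EGFR ligands among the members. Btc (ENSMUSG00000082361, chromosome 5, 91357261 to 91402994) had 0.777, 1.23 and 1.28 FPKM in siNC and 1.31, 1.27 and 1.51 FPKM in siSetdb1. The groups overlapped, siNC replicate 1 was the lowest, and the gene did not pass (log2 fold change 0.18, 95% interval -0.098 to 0.46, limma adjusted p = 0.337). The difference was 0.067 without siNC replicate 1, 0.0066 with trends in GC content and exon length taken out, and 0.34 with limma-voom. Epgn (ENSMUSG00000035020, chromosome 5, 91027464 to 91035215) was covered by 0, 1 and 1 reads in the siNC libraries and by 0, 1 and 5 in the siSetdb1 libraries. The sums of 2 and 6 reads have exact 95% Poisson intervals of 0.242 to 7.22 and 2.2 to 13.1 reads, which cover counting error only. At this depth no difference in Epgn was detectable.

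Nrg1 was the member that fell. Nrg1 (ENSMUSG00000062991, chromosome 8, 31814551 to 32884797) had 3.37, 3.76 and 3.67 FPKM in siNC and 2.38, 2.30 and 2.16 FPKM in siSetdb1. The 2 groups were well apart relative to their spread, with means of 3.60 ± 0.21 and 2.28 ± 0.11 FPKM (SD, n = 3). The mean fell by 36.7%, with a log2 fold change of -0.49 (SE 0.08, limma adjusted p = 0.00816). In the alternatives run on it, the adjusted p-value was 0.00147 to 0.0401. Neuregulin is made in several forms from different promoters, and the single value per gene sums over them. In the annotation used here, the exons of Nrg1 share 482 bases, 4.7% of their length, with Gm26578, a noncoding gene on the other strand. Gm26578 is not in the deposited table, and reads from the shared bases cannot be assigned to either gene.

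**Figure D2:**
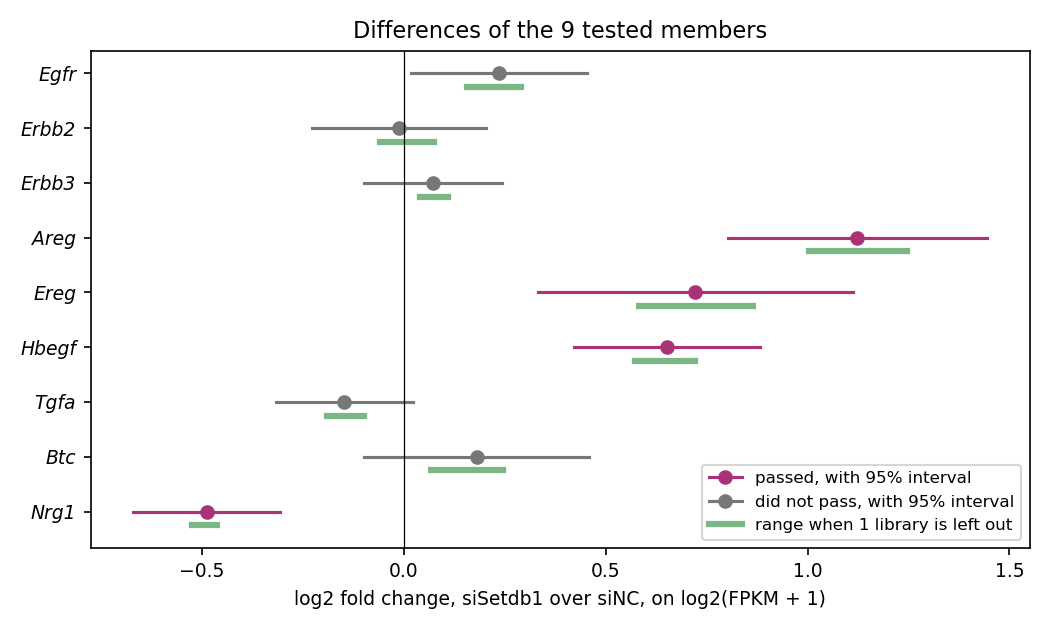
Log2 fold change of siSetdb1 over siNC for the 9 tested members on the log2(FPKM + 1) scale (point) with its 95% interval (line), and, below it, the range of the estimate when each of the 6 libraries is left out in turn (thick line). The intervals of Areg, Ereg and Hbegf lie above 0 and that of Nrg1 below 0, and the interval of Erbb2 is centred near 0.

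None of the 3 receptor genes passed. Egfr (ENSMUSG00000020122, chromosome 11, 16752203 to 16918158) had 7.0, 8.30 and 8.59 FPKM in siNC and 9.85, 10.0 and 8.76 FPKM in siSetdb1. The groups were next to each other without overlap, with siNC replicate 1 the lowest library. The log2 fold change was 0.24 (95% interval 0.019 to 0.45) and did not pass (limma adjusted p = 0.128, unadjusted p = 0.0367). Without siNC replicate 1 the log2 fold change was 0.16 and the adjusted p = 0.194. With trends in GC content and exon length taken out it was 0.13 (0.155).

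Erbb2 and Erbb3 had overlapping groups. Erbb2 (ENSMUSG00000062312, chromosome 11, 98412470 to 98437716) had 14.8, 12.1 and 12.2 FPKM in siNC and 13.3, 12.1 and 13.4 FPKM in siSetdb1, with siNC replicate 1 the highest of the 6. Its log2 fold change was -0.012 (95% interval -0.23 to 0.20, limma adjusted p = 0.941), and its sign was positive with median-ratio scaling. Erbb3 (ENSMUSG00000018166, chromosome 10, 128567523 to 128589652) had 7.43, 6.79 and 6.81 FPKM in siNC and 7.80, 7.01 and 7.46 FPKM in siSetdb1, with a log2 fold change of 0.072 (95% interval -0.098 to 0.24, limma adjusted p = 0.530). It was 0.040 without siSetdb1 replicate 1 and 0.11 without siNC replicate 1. A change of either receptor by 0.3 or more on this scale lies outside these intervals. Mien1, which ends 9 bases into the exons of Erbb2 on the other strand, fell from 10.6 to 7.24 FPKM (log2 fold change -0.49, limma adjusted p = 0.0282). Grb7, which encodes an adaptor that binds ERBB2 and lies beyond Mien1 on the same chromosome, fell from 39.5 to 29.2 FPKM (log2 fold change -0.42, limma adjusted p = 0.0405). The Grb7 call was lost with median-ratio scaling (0.0536), with no filter (0.109), without siNC replicate 2 (0.0644) and without siSetdb1 replicate 1, 2 or 3 (0.0788, 0.133 and 0.112).

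Of the other ERBB genes, Egf and Nrg4 were listed at low levels. Egf had 4 to 9 reads per library (0.0211 to 0.0468 FPKM) and Nrg4 had 5 to 14 reads per library (0.0473 to 0.134 FPKM), and their groups overlapped. Erbb4, Nrg2 and Nrg3 were not among the 25416 genes of the deposited table and so could not be analysed. No gene of that table was at 0 FPKM in all libraries, and whether the absent genes had no reads was not tested.

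The order of the members by level differed between the groups. FPKM divides by the length of all annotated exons of a gene, not by that of the transcripts the cells make. Levels, shares and ratios of different genes therefore compare only roughly, and for Nrg1 the length used was not recovered. In siNC, Tgfa had the highest mean level (15.7 FPKM), and its lowest library was above the highest Areg library, although the highest Erbb2 library (14.80 FPKM) reached its range. Areg and Erbb2 followed with overlapping values, then Hbegf, Egfr and Erbb3, whose neighbours in the order overlapped, then Nrg1 and Ereg, which overlapped, then Btc and Epgn. In siSetdb1, Areg had the highest mean level (29.8 FPKM) and stood clear of Tgfa, Hbegf and Erbb2, whose neighbours in the order overlapped. Egfr came next, Erbb3 and Ereg overlapped, and Nrg1, Btc and Epgn were lowest.

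Summed over the 7 ligands that bind EGFR (Egf included), transcripts came to 40.5, 41.9 and 42.7 FPKM in siNC and 57.9, 65.5 and 72.6 FPKM in siSetdb1. The siSetdb1 sums were above all siNC sums, with means of 41.7 ± 1.1 and 65.3 ± 7.3 FPKM (SD, n = 3). Areg made up 27.8% to 34.3% of the sum in siNC and 42.7% to 48.3% in siSetdb1. The share of Tgfa was 34.5% to 41.7% in siNC and 18.8% to 25% in siSetdb1. The share of Hbegf was 17.4% to 21.9% and 20.2% to 21.1%, so that it overlapped between the groups while its level rose. The ratio of Areg to Tgfa was 0.667, 0.925 and 0.916 in siNC and 1.71, 2.09 and 2.57 in siSetdb1. The 3 receptors summed to 27.2 to 29.2 FPKM in siNC and 29.1 to 30.9 FPKM in siSetdb1. These sums follow from the single members and carry no test of their own.

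**Figure D3:**
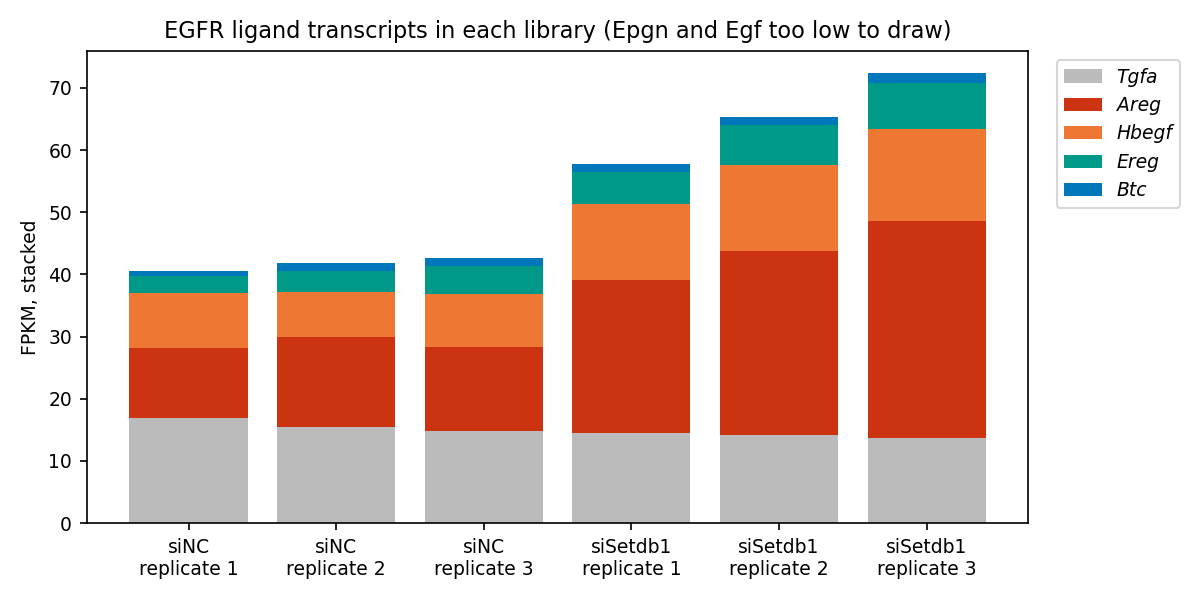
FPKM of the EGFR ligand genes Tgfa, Areg, Hbegf, Ereg and Btc stacked for each of the 6 libraries, with Epgn and Egf left out as too low to draw. With Epgn and Egf added, the sums are 40.5 to 42.7 FPKM in siNC and 57.9 to 72.6 FPKM in siSetdb1, and the Areg segment is the largest in every siSetdb1 library.

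Of 11 other genes tested within 500 kb of the Areg stretch, 1 rose, 2 fell and 8 did not pass, beside 15.1% of all genes that passed. Parm1, which encodes a membrane glycoprotein, rose from 72.2 to 88.0 FPKM (log2 fold change 0.28, limma adjusted p = 0.0293) and lost the call in 7 of 14 alternatives. Rassf6, a member of the RAS association domain family, fell from 12.7 to 9.28 FPKM (-0.42, limma adjusted p = 0.0142, and 0.0575 without siSetdb1 replicate 2). The chemokine gene Cxcl5 had 34.6, 22.5 and 43.0 FPKM in siNC and 9.51, 8.24 and 19.7 FPKM in siSetdb1 and fell (-1.40, limma adjusted p = 0.0340). That call was lost without siNC replicate 1 (0.0897), siNC replicate 3 (0.0810), siSetdb1 replicate 1 (0.116) or siSetdb1 replicate 2 (0.108). Cxcl1 and Cxcl3, with log2 fold changes of -0.57 and -0.44, did not pass with all libraries and did without siNC replicate 2 (adjusted p = 0.0346 and 0.0326). Of the others, Mthfd2l, between the chemokine genes and Epgn, had 4.73 ± 0.09 and 4.35 ± 0.31 FPKM and did not pass, nor did Gm19610, Ppbp and the pseudogenes Trmt112-ps1, Gm7832 and Gm5558.

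**Figure D4:**
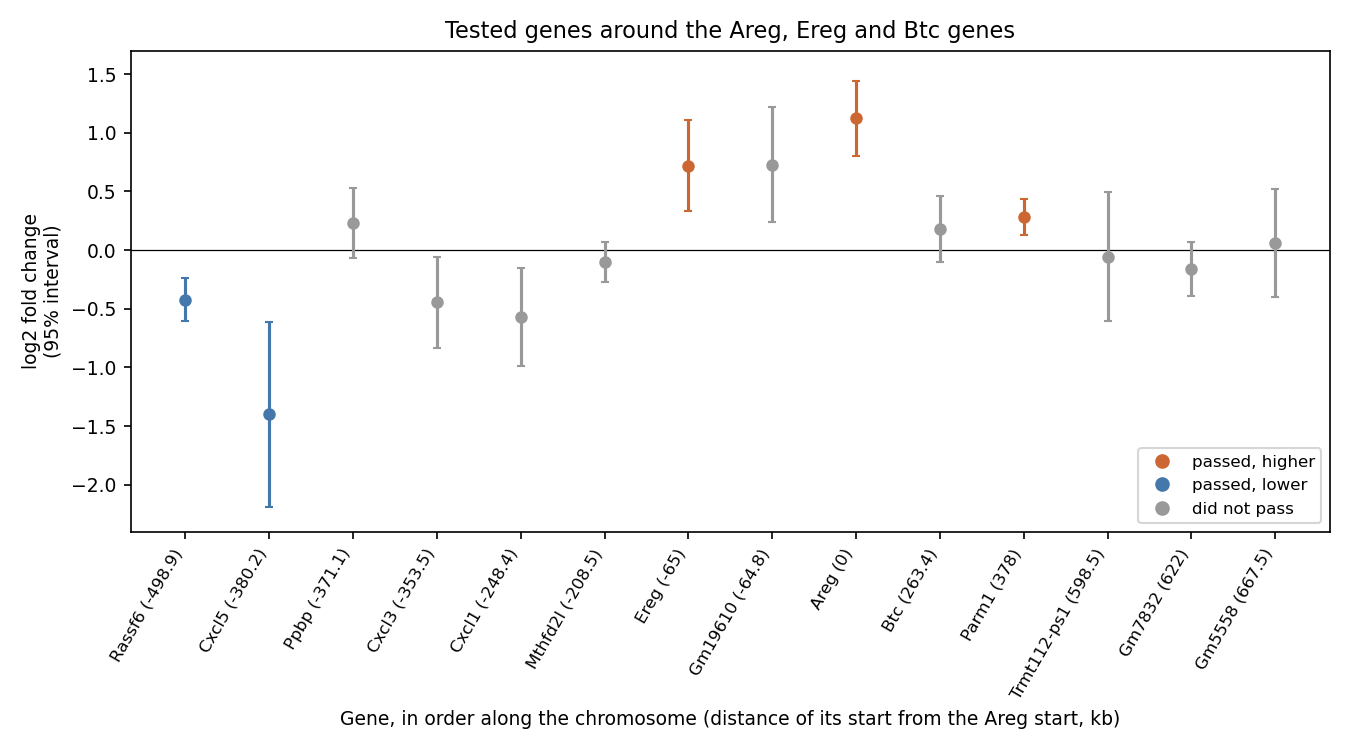
Log2 fold change with 95% interval for the 14 tested genes in and around the stretch that holds Epgn, Ereg, Areg and Btc, in order along the chromosome, with the distance of each gene start from the Areg start in kb. Ereg, Areg and Parm1 passed as higher and Rassf6 and Cxcl5 as lower.

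Genes that process the ligands were tested from a list of proteases and their cofactors. Of 17 tested, 2 rose, 1 fell and 14 did not pass, 17.6% against 15.1% of all genes, with a median log2 fold change of 0.0315. The metalloprotease genes Adam8 and Adam12 rose from 14.1 ± 1.4 to 32.7 ± 1.8 FPKM (log2 fold change 1.16, limma adjusted p = 0.000927) and from 10.2 ± 0.7 to 15.5 ± 0.8 FPKM (0.55, limma adjusted p = 0.00514). Adam17, the main protease that releases Areg, Hbegf and Tgfa, had 14.2 ± 1.9 and 13.3 ± 0.6 FPKM and did not pass (limma adjusted p = 0.617), and neither did Adam10, Rhbdf1 and Rhbdf2. These 4 genes were chosen for their known role after their values were seen. The rhomboid protease gene Rhbdl2 had 0.902 ± 0.116 and 0.448 ± 0.102 FPKM and fell (-0.39, limma adjusted p = 0.0419). It met the filter on low values through siNC, where it is high, and it did not pass without any 1 of the 6 libraries (adjusted p = 0.0650 to 0.138).

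Among inhibitors of the receptors and genes of their trafficking, 8 of 45 tested rose, 1 fell and 36 did not pass. The list was not split by whether a gene favours or opposes the receptors, so its count gives no direction of receptor signalling. The 9 that passed stand against 15.1% of all genes, and the median of the list was 0.10. With median-ratio scaling 9 rose and 0 fell. Ubash3b, which encodes a phosphatase that acts on receptor tyrosine kinases, rose from 3.91 ± 0.30 to 8.10 ± 0.21 FPKM (0.89, limma adjusted p = 0.00120). Lmo7 rose by 0.44, Stam, of the endosomal sorting machinery, by 0.45, and Socs2, a feedback inhibitor of cytokine receptors, fell by 0.49 on the log2 scale. Lmo7 lost its call without siSetdb1 replicate 1 or 2 (adjusted p = 0.0697 and 0.0608). Stam lost it without siNC replicate 2 (0.0598) or siSetdb1 replicate 1, 2 or 3 (0.138, 0.110 and 0.0712). Socs2 lost it without siNC replicate 1, 2 or 3 (0.0746, 0.107 and 0.0693) or siSetdb1 replicate 1 or 2 (0.123 and 0.101). With the replicate block, Lmo7, Stam and Socs2 lost their calls as well (adjusted p = 0.0516, 0.0904 and 0.0832). Stam and Socs2 also lost theirs with no filter (0.106 and 0.114), and Socs2 with median-ratio scaling (0.0574). The count of the list was 2 without siNC replicate 2, 1 without siSetdb1 replicate 1 or 2 and 4 without siSetdb1 replicate 3. Errfi1, which encodes an inhibitor of the EGFR kinase and was chosen after its values were seen, had 7.91, 6.95 and 9.08 FPKM in siNC and 8.47, 9.30 and 11.2 FPKM in siSetdb1 and did not pass (limma adjusted p = 0.211).

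Of the adaptors and effectors that dock to the receptors, 3 rose, 3 fell and 30 of 36 did not pass, 16.7% against 15.1% of all genes, with a median of 0.115. With median-ratio scaling 4 rose and 1 fell. Shc1, an adaptor gene, rose from 56.1 ± 2.5 to 73.6 ± 2.9 FPKM (0.38, limma adjusted p = 0.0113), with an adjusted p = 0.0600 without siSetdb1 replicate 1. Sos2, which encodes an activator of RAS, rose by 0.41, and Pik3r3, a regulatory subunit of PI3 kinase, fell by 0.39 on the log2 scale. The count of 6 in this list became 12 without siNC replicate 1 and 2 without either of the other siNC libraries (replicates 2 and 3). It became 0 without siSetdb1 replicate 1 and 1 without replicate 2 or replicate 3 of that group. Grb7, Sos2 and Pik3r3 were each lost in at least 6 of 14 alternatives.

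The list of ERK output genes was a published signature of 10 genes whose transcription ERK drives. Of these, 8 rose, none fell and 2 did not pass, against 6.87% of all genes as higher, and the median log2 fold change was 0.565. The list was chosen with earlier results of these data known, so the count is a description. These values are mRNA levels, and the activity of ERK itself was not measured. Dusp6, which encodes a phosphatase of ERK, had 55.8, 47.7 and 51.5 FPKM in siNC and 95.1, 103.1 and 111.8 FPKM in siSetdb1. Phlda1 rose from 9.72 ± 1.15 to 18.6 ± 3.6 FPKM (0.86, limma adjusted p = 0.0102), and the ephrin receptor gene Epha2 rose from 33.9 ± 3.2 to 58.1 ± 4.8 FPKM (0.76, limma adjusted p = 0.00360). The ERK inhibitor gene Spry4 rose from 0.365 ± 0.057 to 1.07 ± 0.26 FPKM (0.59, limma adjusted p = 0.0182). Spry4 was below 0.5 FPKM in each siNC library, so it met the filter only through siSetdb1, where it is high, and its call gives no support to the list. With a filter of 1 FPKM it was not tested and 7 genes of the signature passed. Leaving out siNC replicate 2 (0.0577), siSetdb1 replicate 2 (0.0742) or siSetdb1 replicate 3 (0.059) ended this call. The 2 genes of the signature that did not pass were Ccnd1, which encodes cyclin D1, with 107.1 ± 5.8 and 105.4 ± 4.4 FPKM, and Epha4, with 8.43 ± 0.51 and 9.46 ± 0.51 FPKM.

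**Figure D5:**
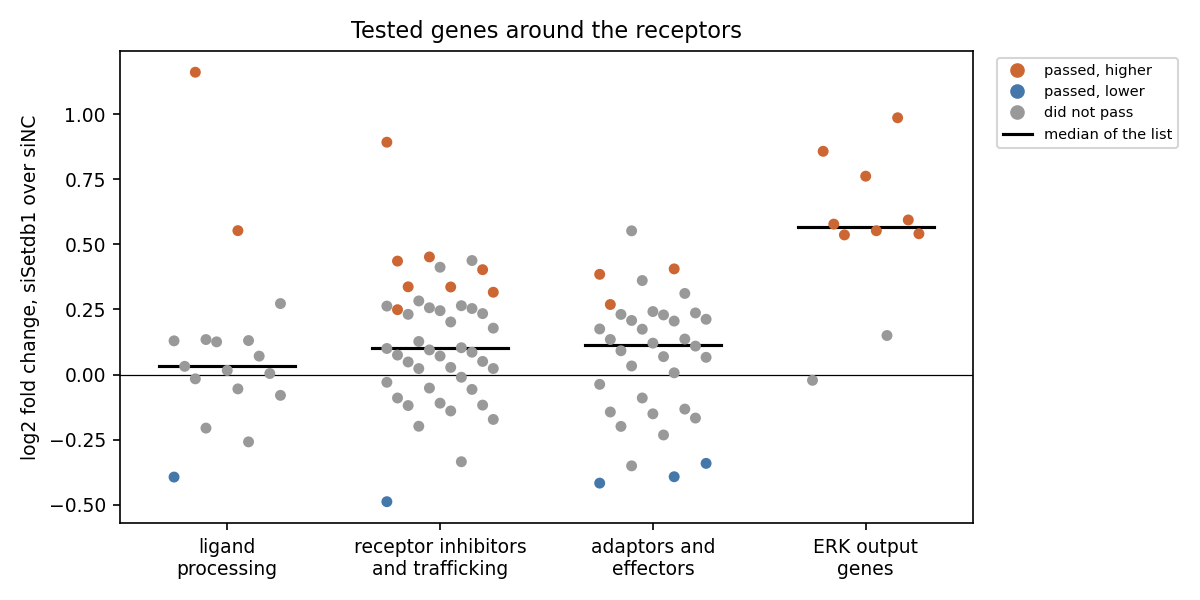
Log2 fold change of siSetdb1 over siNC for each tested gene of the 4 lists around the receptors (points), coloured by whether it passed, with the median of each list (line). The medians are 0.0315, 0.10, 0.115 and 0.565 from left to right.

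The genes with profiles most like those of Areg and Egfr were named by the root mean square difference of their log2(FPKM + 1) values, centred on each gene's mean, over the 6 libraries. For Areg they were Odaph (0.123), the noncoding gene Gm12055 (0.154) and Vnn1 (0.157), of which Vnn1 had 2.88 to 3.30 FPKM in siNC and 7.14 to 8.63 FPKM in siSetdb1. Odaph and Gm12055 had at most 0.282 FPKM in siNC and at least 1.01 FPKM in siSetdb1. Both met the filter on low values only through siSetdb1, where they are high. At such low levels log2(FPKM + 1) understates the change, so their likeness to Areg holds on this scale and not in FPKM. For Egfr they were Slc25a46 (0.0188), Tbk1 (0.0205) and Phf14 (0.0238). None of these 3 genes passed, and siNC replicate 1 was the lowest library for each, as it was for Egfr.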

How the data were processed

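RNA of 6 libraries was sequenced. The deposited table gives FPKM values made by the authors, 1 per gene and sample. Its headers name no unit. The unit was found from the values: with exon lengths of GENCODE M21 (GRCm38), they came out as whole reads within 0.01 for 98.6% of the genes. Nrg1 was not among these, so its reads are not given. Per the submitters' processing notes, the tools were DESeq2 1.4.5, RSEM 1.2.12, HISAT2 2.0.4 and Bowtie2 2.2.5, with no role named, on mm10. Per the labels' protocols, mRNA was selected with oligo(dT) beads, and sequencing was single-end over 50 bases.

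Groups were taken from the titles. Genes with at least 0.5 FPKM in 3 libraries (12846) were compared by limma-trend with robust variance (R 4.3.3, limma 3.58.1), using log2(FPKM + 1) values and a model of group alone. The tests are two-sided with Benjamini-Hochberg adjustment and a threshold of 0.05. Alternatives were a pseudocount of 0.1, no filter, a filter of 1 FPKM, median-ratio scaling, limma-voom on the recovered reads, the replicate number as a block, removal of trends with GC content and length, each library left out, and, added after the data were seen, a variance trend on mean reads. Named genes are all members, up to 4 passing genes per list by size of change, the neighbours, and the 3 nearest profiles. Members and lists were chosen with earlier results of these data known.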

Additional observations from a re-analysis of the deposited data

How the results depend on the processing

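Areg, Hbegf and Nrg1 kept their direction and their call in every alternative run on them (14, 14 and 13), Ereg kept its direction in 14 and lost its call in 4, and Egfr, Erbb3, Tgfa and Btc kept their sign and did not pass in any of 14, although Egfr ranged from 0.13 to 0.29, Erbb3 from 0.040 to 0.11, Tgfa from -0.19 to -0.098 and Btc from 0.0066 to 0.34. Nrg1 was not run with limma-voom, because its reads were not recovered. The count of members that passed was 3 with no filter and with limma-voom, 3 to 4 when 1 library was left out, and 4 in the other alternatives. The log2 fold change of Erbb2 was 0.012 with median-ratio scaling, 0.027 after removal of GC and length trends, and -0.059 to 0.075 (0.075 without siNC replicate 1, 0.032 without siSetdb1 replicate 2) when 1 library was left out. Those of Trmt112-ps1 and Gm5558 were -0.25 to 0.19 and -0.13 to 0.24 when 1 library was left out, and that of Trmt112-ps1 was 0.065 with the trends removed.

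Of the genes that passed, 45.4% were higher, and 54.1% with median-ratio scaling. All genes that passed numbered 1945, and 890 with no filter and 683 to 2176 when 1 library was left out. The 9 inhibitor and trafficking genes became 2 with no filter, 15 with the trends removed and 1 to 8 when 1 library was left out. The 6 adaptor and effector genes became 1, 13 and 0 to 12. The ligand processing count was 2 and the ERK output count 7 to 8 when 1 library was left out. The causes were not tested.

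Over all genes tested, same-numbered libraries did not deviate together (correlations of -0.157, 0.167 and -0.172). These correlations cannot exclude a pairing that touches some genes. With the replicate number as a block, the SE fell from 0.138 to 0.091 for Areg and from 0.167 to 0.081 for Ereg. It rose from 0.099 to 0.1045 for Hbegf and from 0.078 to 0.092 for Nrg1. With the replicate block, 1015 genes passed in all, 1 inhibitor and trafficking gene and 2 adaptor and effector genes, and the same 4 members. Depth limits Epgn, Egf and Nrg4, which had at most 14 reads per library.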
